A study of Homo sapiens with 24 samples.

Results

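FOXO1, FOXO3 and FOXO4, together with 6 genes of the PI3K pathway that controls them (PIK3CD, PIK3CG, PIK3R1, PIK3IP1, INPP5D and AKT1), were followed through FOXP1 silencing in 4 diffuse large B-cell lymphoma (DLBCL) lines. These 9 genes, of 30142 on the array, were chosen by name, and all 18 probes that carry their symbols were read. DB and K422 are germinal center B-cell-like (GCB) lines and HBL-1 and OCI-Ly3 are activated B-cell-like (ABC) lines. Cells were electroporated with 1 µM of siFOXP1 #1 or siFOXP1 #2, a pair of FOXP1-targeting siRNAs, or with a non-targeting siRNA (siCtrl), and RNA was taken after 48 h. Each of 24 arrays set siFOXP1 RNA, labelled with Cy3, against siCtrl RNA of the same line, labelled with Cy5, with 3 biological replicates for each line and siRNA. Each subtype is represented by 2 established lines, and all siCtrl cells had themselves been transfected.

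Class I PI3 kinases make the membrane lipid PIP3 downstream of the B-cell receptor, and PIP3 recruits and activates the kinase Akt. Akt phosphorylates the FOXO transcription factors, which then leave the nucleus and no longer drive genes of quiescence, apoptosis, trafficking and immunoglobulin gene diversification. FOXO1 is the principal FOXO factor of germinal center B cells. FOXO proteins and FOXP1 share the forkhead DNA-binding domain and a core recognition motif.

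The forkhead letters GTAAACA (with the longer GTAAACAA, which contains them) and the insulin response letters CAAAACAA were searched on both strands of the RefSeq promoter windows of build GRCh38.p14, each of 250 bases before and 50 after a transcript start. All 9 genes had a window, 19 in all, and 4 of these held a match. GTAAACA was found in windows of FOXO4 and PIK3IP1, and CAAAACAA in windows of PIK3CD and PIK3CG. FOXP1 has 6 windows, and 1 of them held GTAAACAA. Each site is shown 5′ to 3′ on the strand of its gene because these are the only matches in the windows of the 9 genes and FOXP1. Matches were not listed for the pathway genes named below. Capitals mark the match or its reverse complement.
FOXO4, chrX:71095863-71095891, + strand, match 24 bases into the transcript: cccggcgagtgGTAAACAgagacgtcagg
PIK3IP1, chr22:31292455-31292483, − strand, match 17 bases into the transcript: taaagagaggcTGTTTACcagaacagcat
PIK3CD, chr1:9651493-9651522, + strand, match starting at -227: aaaaagaaaacTTGTTTTGtagaagggcaa
PIK3CG, chr7:106865352-106865381, + strand, match starting at -116: taggtttgaatTTGTTTTGttttcaaaaat
FOXP1, chr3:71245253-71245282, − strand, match starting at -194: caactatgttaTTGTTTACtttaccataca
Of 35116 windows in the table, 3.42% held GTAAACA, 0.954% held GTAAACAA and 1.68% held CAAAACAA. A match describes letters and is not a binding site.

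All 6 B-cell markers were well above background on every siCtrl array. All 6 germinal center markers were in DB and K422, against 2 in HBL-1 and 3 in OCI-Ly3. All 6 activated B-cell markers were in the ABC lines, against 4 in DB and 3 in K422. Of 5 myeloid markers, 1 to 3 were, depending on the line. Of 5 T-cell markers, 3 were above background on all siCtrl arrays of K422, among them CD3D at a log2 level of 11.73 and CD3G at 12.80, which were not above background on any array of the other lines. In those lines 0 or 1 of the 5 markers was, and the part of this in the K422 results was not tested. Per array, 57.3% to 64.5% of the probes stood clear of background in at least 1 channel. The array of siFOXP1 #1 replicate 3 in DB had the widest spread of log2 ratios (SD 0.564, against 0.386 to 0.558 on the others), and leaving it out gave the same 11 calls among the 9 genes. The log2 change of FOXP1 itself was weakest in K422 at -1.34 and reached -1.74 in HBL-1, with DB (-1.998) close to OCI-Ly3 (-1.96). Silenced RNA always carried Cy3, and therefore an effect of silencing in 1 line and a probe's preference for a dye cannot be told apart. A preference that is constant cancels in a difference between lines or between siRNAs.

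Changes are given as log2(siFOXP1/siCtrl) of the brightest probe of a gene, as mean ± SD over the 6 arrays of a line. A gene passed when its limma p, adjusted by Benjamini-Hochberg over all 30138 genes tested, was under 0.05, and it was called when it also changed by 0.5 or more on the log2 scale, which is 1.41-fold. All 9 genes were tested, and no filter on dim probes was applied. In DB, 2 of 9 were called higher, and 3 of 9 in each of K422, HBL-1 and OCI-Ly3. None was called lower in any line. Of all genes, 1.33% were called higher and 0.826% lower in DB, 2.34% and 2.1% in K422, 5.73% and 4.17% in HBL-1, and 2.8% and 1.62% in OCI-Ly3. The median over the 9 genes was -0.05, 0.17, 0.18 and 0.14 in the same order of lines, while that of all genes was 0 in each. The 11 calls were FOXO4 and AKT1 in all 4 lines, PIK3R1 in 2 lines and PIK3IP1 in 1. Their sizes depended on the processing: with normexp background correction (offset 50) and a new loess in place of the scanner software's ratios, all 11 values stayed above 0 but only AKT1 and PIK3R1 in OCI-Ly3 were still calls. Over all genes, 52.8% to 63.4% of the calls in a line were in the higher direction, against 61.2% to 76.9% under normexp with loess, 7.79% to 55.1% under normexp with median centring and 23.9% to 53.2% in the deposited matrix.

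**Figure D1:**
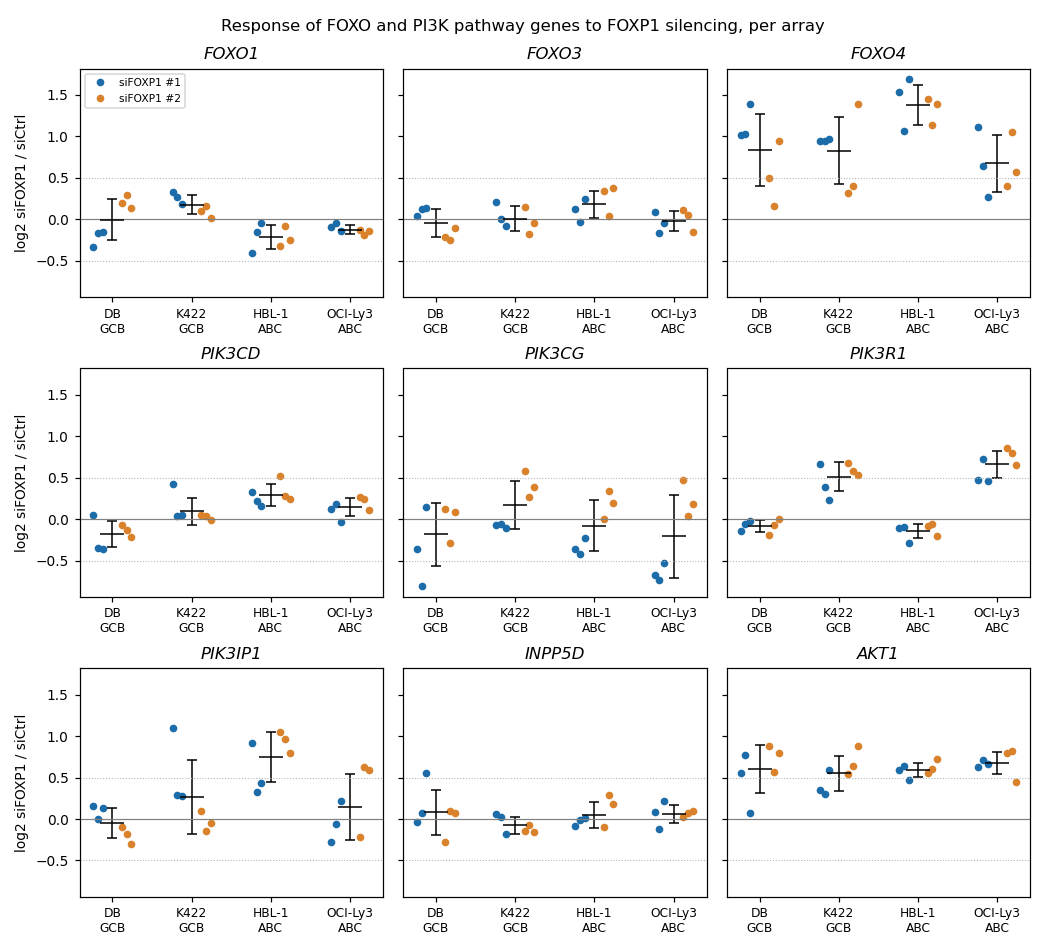
Log2(siFOXP1/siCtrl) of the 9 genes on each array, by line. Points are arrays, blue for siFOXP1 #1 and orange for #2, black bars are mean and SD over 6 arrays, and dotted lines mark a change of 0.5. AKT1 and FOXO4 lie above 0 on all 24 arrays, PIK3R1 rises in K422 and OCI-Ly3 only, and PIK3IP1 is highest in HBL-1.

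Of the FOXO factors, FOXO4 was called higher in every line by its brightest probe. This probe (A_24_P379165, chromosome X, 70239078 to 70239137 of hg18, + strand) was higher on all 24 arrays. In HBL-1 the 6 arrays ran from 1.06 to 1.69 with a median of 1.42, a rise of 1.38 ± 0.24 or 2.60-fold (adjusted p = 8.1e-07). In DB they ran from 0.16 to 1.38, median 0.98, with a mean of 0.84 ± 0.44 (adjusted p = 0.00067). In K422 they ran from 0.32 to 1.39, median 0.94, with a mean of 0.83 ± 0.40 (adjusted p = 0.00039). In OCI-Ly3 they ran from 0.27 to 1.12, median 0.60, with a mean of 0.67 ± 0.34 (adjusted p = 0.0023). The HBL-1 arrays overlapped those of each other line, and the rise in HBL-1 exceeded that in OCI-Ly3 by 0.71 (SE 0.20, adjusted p = 0.025), in a comparison chosen after seeing the data.

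FOXO4 was a dim transcript, and its level limits these values. In siCtrl RNA the brightest probe was well above background on all 6 arrays of DB and K422, on 5 of 6 in HBL-1 and on 4 of 6 in OCI-Ly3. A second FOXO4 probe (A_23_P217487, chromosome X, 70238432 to 70238491) was 0.20 ± 0.44 in HBL-1 (adjusted p = 0.51) and 0.01 ± 0.44 in OCI-Ly3, where siCtrl RNA was well above background on 4 and on 2 of 6 arrays. In DB and K422 this probe was not well above background in siCtrl RNA on any array, which gives a rise of at least 1.20-fold in K422 and no bound in DB. The remaining FOXO4 probe, which the design does not place on the genome, was never above background. With the probes averaged, FOXO4 was called in HBL-1 but not in DB, K422 or OCI-Ly3, and under normexp with loess it passed in HBL-1 (0.40), DB (0.35) and K422 (0.30), while OCI-Ly3 at 0.16 did not (adjusted p = 0.15). Under normexp with median centring FOXO4 passed in HBL-1 only (0.42, adjusted p = 0.0027). The adjusted p was then 0.097 in DB, 0.060 in K422 and 0.38 in OCI-Ly3.

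FOXO1 changed little, and in opposite directions in different lines. Its brightest probe (A_23_P151426) lies on chromosome 13 between 40031128 and 40031661 of hg18, on the − strand. In K422 it was higher on 6 of 6 arrays, from 0.01 to 0.33 with a median of 0.17, and passed at 0.17 ± 0.11 (adjusted p = 0.0072). In HBL-1 it was lower on 6 of 6 arrays, from -0.41 to -0.05 with a median of -0.21, and fell by 0.21 ± 0.14 (adjusted p = 0.00078). In OCI-Ly3 it was lower on 6 of 6 arrays at -0.12 ± 0.05 and just missed the threshold (adjusted p = 0.0505). In DB it was -0.01 ± 0.25. The K422 arrays did not overlap those of HBL-1 or OCI-Ly3. None of these changes reached 0.5, and under normexp with median centring the K422 value turned to -0.11.

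The FOXO1 probes disagreed in DB and HBL-1. The dimmer probe (A_24_P22079, chromosome 13, 40028709 to 40028768) fell by 0.63 ± 0.49 in DB, with 6 of 6 arrays from -1.37 to -0.05 (adjusted p = 2.1e-05 over all probes). It was 0.40 ± 0.15 in K422 (adjusted p = 0.00056), 0.03 ± 0.09 in HBL-1 and -0.08 ± 0.07 in OCI-Ly3. Both probes passed as higher in K422. The fall in HBL-1 was thus carried by the brighter probe and the fall in DB by the dimmer one.

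FOXO3, which is regulated by Akt in the same way, was called in no line. It passed in HBL-1 only, at 0.18 ± 0.16 with 5 of 6 arrays higher (adjusted p = 0.018), and was -0.05 ± 0.17 in DB, 0.01 ± 0.15 in K422 and -0.02 ± 0.12 in OCI-Ly3. The second FOXO3 probe was 0.16 ± 0.12 in HBL-1 (adjusted p = 0.16). Under normexp with median centring the HBL-1 value was 0.00.

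AKT1, the kinase that inactivates FOXO proteins, rose in every line by a similar amount. Its only probe (A_23_P2960, chromosome 14, 104310325 to 104310384, − strand), which is spotted 10 times, was higher on all 24 arrays. In DB the arrays ran from 0.08 to 0.89, median 0.67, with a mean of 0.61 ± 0.29 (adjusted p = 4.1e-05). In K422 they ran from 0.30 to 0.88, median 0.57, with a mean of 0.55 ± 0.21 (adjusted p = 5.0e-05). In HBL-1 they ran from 0.47 to 0.72, median 0.60, with a mean of 0.60 ± 0.09 (adjusted p = 6.6e-06). In OCI-Ly3 they ran from 0.45 to 0.82, median 0.69, with a mean of 0.68 ± 0.13 (adjusted p = 5.7e-06). The lines overlapped throughout. The difference between ABC and GCB lines was 0.06 (95% interval -0.10 to 0.22, adjusted p = 0.705).

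AKT1 and FOXO4 were 2 of 22 genes called higher in all 4 lines, which is 0.073% of all genes. These rises are the ones that a constant dye bias would also give, and the design holds no array of the other orientation. The lowest AKT1 value, 0.08, came from the DB array with the widest spread, and without that array AKT1 in DB was 0.71. Under normexp with loess AKT1 passed in each line, with 0.55 in OCI-Ly3, 0.27 in HBL-1, 0.44 in K422 and 0.40 in DB. Median centring in place of loess left AKT1 a call in OCI-Ly3 only. Elsewhere it no longer passed, at 0.36 for each GCB line and 0.21 for HBL-1. The smallest adjusted p among these was 0.076, for K422. Under the t-test of the methods, neither AKT1 (adjusted p = 0.11) nor FOXO4 (adjusted p = 0.13) passed in DB.

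PIK3R1, which encodes the p85α regulatory subunit that stabilises and restrains the catalytic subunits, rose in one line of each subtype and fell slightly in HBL-1. In OCI-Ly3 it was higher on 6 of 6 arrays, from 0.47 to 0.86 with a median of 0.69, and rose by 0.66 ± 0.16 or 1.58-fold (adjusted p = 1.5e-07). In K422 it was higher on 6 of 6 arrays, from 0.23 to 0.68 with a median of 0.55, and rose by 0.51 ± 0.17 (adjusted p = 2.3e-06). In HBL-1 it was lower on 6 of 6 arrays, from -0.28 to -0.06 with a median of -0.11, and fell by 0.14 ± 0.08 (adjusted p = 0.040). In DB it was -0.08 ± 0.07 (adjusted p = 0.37), with a lowest value of -0.19. The arrays of K422 and OCI-Ly3 did not overlap those of DB and HBL-1.

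The second PIK3R1 probe (A_23_P144980, chromosome 5, 67626870 to 67627024) ran the same way as the first (A_24_P29401, chromosome 5, 67632542 to 67632601). It gave 0.74 ± 0.24 in K422 and 0.70 ± 0.20 in OCI-Ly3, against -0.01 ± 0.26 in DB and -0.32 ± 0.39 in HBL-1, and its K422 siCtrl signal was well above background on 4 of 6 arrays. K422 was close to the limit of 0.5. It came to 0.43 without K422 replicate 1 and to 0.34 under normexp with loess, and passed in both. Under normexp with median centring it was 0.27 and did not pass (adjusted p = 0.27).

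**Figure D2:**
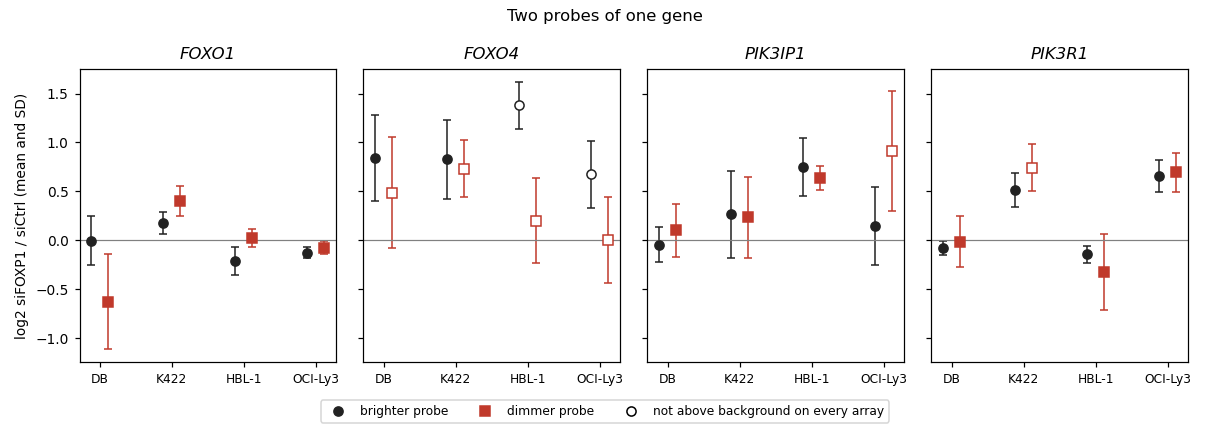
Mean and SD over 6 arrays of log2(siFOXP1/siCtrl) for the brighter (black) and dimmer (red) probe of FOXO1, FOXO4, PIK3IP1 and PIK3R1 in each line. Open symbols mark a probe that was not well above background in both channels on all 6 arrays. The gap between probe means is largest for FOXO4 in HBL-1 (1.38 against 0.20). It is also wide for FOXO1 in DB, FOXO4 in OCI-Ly3 and PIK3IP1 in OCI-Ly3.

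The catalytic subunits changed less. PIK3CD encodes p110δ, the main catalytic subunit of B cells, and passed in HBL-1 only, where it was higher on 6 of 6 arrays, from 0.15 to 0.52, with a mean of 0.29 ± 0.13 (adjusted p = 0.00069), but at 0.02 under normexp with median centring. It was 0.10 ± 0.16 in K422, 0.15 ± 0.11 in OCI-Ly3 (adjusted p = 0.090) and -0.18 ± 0.16 in DB (adjusted p = 0.053). The other PIK3CD probes (A_23_P259833 and A_23_P33303) gave 0.28 and 0.22 in HBL-1, and the first of them passed in OCI-Ly3 at 0.35 ± 0.11 (adjusted p = 0.0077). PIK3CG encodes p110γ, the catalytic subunit coupled to G protein receptors, and passed in no line, with -0.21 ± 0.50 in OCI-Ly3, -0.18 ± 0.38 in DB, -0.08 ± 0.31 in HBL-1 and 0.17 ± 0.29 in K422. In each line 3 of 6 arrays were higher, and the spread was the widest of the subunits.

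PIK3IP1, a membrane protein that inhibits the catalytic subunits, rose in HBL-1. The 6 arrays of its brightest probe (A_24_P134488, chromosome 22, 30008229 to 30008288, − strand) ran from 0.33 to 1.05 with a median of 0.86, and the mean was 0.75 ± 0.30 or 1.68-fold (adjusted p = 5.5e-05). It was -0.05 ± 0.18 in DB, 0.27 ± 0.44 in K422 (adjusted p = 0.12) and 0.14 ± 0.40 in OCI-Ly3 (adjusted p = 0.45). The rise in HBL-1 exceeded the change in OCI-Ly3 by 0.60 (SE 0.16, adjusted p = 0.019), in a comparison chosen after seeing the data and for this probe only. In K422 the highest of the 6 values, 1.101, came from siFOXP1 #1 replicate 1, and the next was 0.29.

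A second PIK3IP1 probe (A_23_P109488, chromosome 22, 30015502 to 30015561) gave 0.10 ± 0.27 in DB, 0.23 ± 0.42 in K422 and 0.64 ± 0.12 in HBL-1 (adjusted p = 0.0013), close to the first. In OCI-Ly3 it gave 0.91 ± 0.61, higher on 6 of 6 arrays (adjusted p = 0.00014), where the first probe gave 0.14. The siCtrl signal of this second probe was well above background on 1 of 6 arrays there, so its size in OCI-Ly3 is uncertain. By this probe OCI-Ly3 lay above HBL-1. With normexp and loess PIK3IP1 in HBL-1 was 0.46 and passed.

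INPP5D, which encodes SHIP1, the phosphatase that removes the 5-phosphate of PIP3 in B cells, passed in no line. Its values were 0.05 ± 0.16 in HBL-1 and 0.06 ± 0.11 in OCI-Ly3, against 0.08 ± 0.27 in DB and -0.08 ± 0.10 in K422, and the 95% intervals reached no further than -0.22 and 0.23. Under normexp with median centring it was below 0 in every line, at -0.44 in HBL-1 (adjusted p = 0.042), -0.35 in K422, -0.14 in OCI-Ly3 and -0.13 in DB. The probe was bright in every line. A second INPP5D probe was above background on 1 array of siCtrl RNA in all.

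Lines of both subtypes were silenced, so that their responses can be set against each other. Between the subtypes 2 of 9 genes passed, where 8.3% of all genes did. FOXO1 was lower in the response of ABC lines by 0.25 (log2 -0.25, SE 0.04, adjusted p = 0.0011), and PIK3CD was higher by 0.26 (SE 0.06, adjusted p = 0.0084). Neither difference passed in both scan sessions, and each session held one line of each subtype. For FOXO1 it was -0.12 between OCI-Ly3 and DB (adjusted p = 0.42) and -0.39 between HBL-1 and K422 (adjusted p = 0.00041). For PIK3CD it was 0.33 between OCI-Ly3 and DB (adjusted p = 0.039) and 0.19 between HBL-1 and K422 (adjusted p = 0.16). The other PIK3CD probes gave 0.24 (adjusted p = 0.11) and 0.27 (adjusted p = 0.090) between subtypes, in the same direction without passing. Neither of them passed between OCI-Ly3 and DB (adjusted p = 0.11 and 0.13). The dimmer FOXO1 probe gave 0.09 between subtypes (adjusted p = 0.55), with 0.55 in the first session and -0.38 in the second. PIK3IP1 did not pass by its brightest probe (0.34, adjusted p = 0.081), while its second probe did (0.61, adjusted p = 0.0094), with OCI-Ly3 signal near background. The p-values of the model of all arrays measure the spread between arrays and not between lines. With 4 line means as the samples, 0 of 9 passed (adjusted p = 0.93 for both FOXO1 and PIK3CD).

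The response of PIK3R1 did not pass between subtypes, at 0.04 (95% interval -0.06 to 0.15, adjusted p = 0.68), and the 2 lines of each subtype lay apart. OCI-Ly3 exceeded DB by 0.74 (SE 0.07, adjusted p = 8.1e-06), and HBL-1 lay below K422 (log2 -0.65, SE 0.07, adjusted p = 1.2e-05). Of the 9 genes, 2 passed in each of these comparisons, where 2.83% of all genes passed in the first (OCI-Ly3 with DB) and 9.92% in the second. Within a subtype, in comparisons chosen after seeing the data that also cross the scan sessions, PIK3R1 in K422 exceeded DB by 0.59 (adjusted p = 9.7e-05). It was the 1 gene of 9 to pass there, against 4.79% of all genes. HBL-1 lay below OCI-Ly3 (log2 -0.80, adjusted p = 1.3e-06), where FOXO4 and PIK3IP1 passed as well, 3 genes of 9 against 12.5% of all genes.

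The siRNAs differed in strength, and #2 lowered FOXP1 by 0.85 to 1.40 more than #1 in each line. Among the 36 tests of 9 genes in 4 lines, 1 passed, FOXO1 in DB. Of all genes, 0.395% passed in DB, 0.216% in each of HBL-1 and OCI-Ly3, and 0.189% in K422. FOXO1 in DB was -0.34, -0.17 and -0.16 with siFOXP1 #1 and 0.19, 0.30 and 0.14 with #2, a difference of 0.43 (SE 0.09, adjusted p = 0.034). The 3 arrays of each siRNA lay on opposite sides of 0, which gives the line mean near 0 above. The second FOXO1 probe lay below 0 with both, at -0.9998 ± 0.37 with #1 and -0.25 ± 0.19 with #2, so the opposite signs rest on 1 probe. Leaving out any DB replicate, or any of 5 replicates of K422 and OCI-Ly3, took the adjusted p above 0.05, to 0.0512 to 0.15.

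PIK3CG lay higher with siFOXP1 #2 than with #1 in every line, and no difference passed in the model of all arrays. In OCI-Ly3 it was -0.67, -0.73 and -0.53 with #1 and 0.47, 0.04 and 0.18 with #2, a difference of 0.87 (SE 0.18, adjusted p = 0.0635). It passed under 4 of 11 alternatives. The adjusted p was 0.012 with a replicate block and 0.029 with a slide block. It was 0.048 with a filter on both channels and 0.0099 without the DB array of widest spread. Under the other 7 the difference did not pass, and it went as low as 0.32, with an adjusted p of up to 0.78. Of 12 omissions of a replicate, 2 gave a pass, those of DB replicate 2 and DB replicate 3. The differences were 0.31 in DB, 0.49 in K422 and 0.51 in HBL-1, with adjusted p of 0.58, 0.50 and 0.54. Over the 11 alternatives they ran from -0.03 to 0.56 in DB, 0.42 to 0.49 in K422 and 0.19 to 0.51 in HBL-1. The direction in DB thus depended on the processing. The siRNAs did not overlap in K422, HBL-1 or OCI-Ly3 and overlapped in DB. AKT1 differed between the siRNAs by 0.02 in OCI-Ly3, 0.06 in HBL-1 and 0.28 in each of K422 and DB, and the intervals allow up to 0.59. FOXO4 was 1.14 with #1 and 0.53 with #2 in DB, 0.95 and 0.70 in K422, 1.43 and 1.33 in HBL-1, and 0.67 with each in OCI-Ly3.

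**Figure D3:**
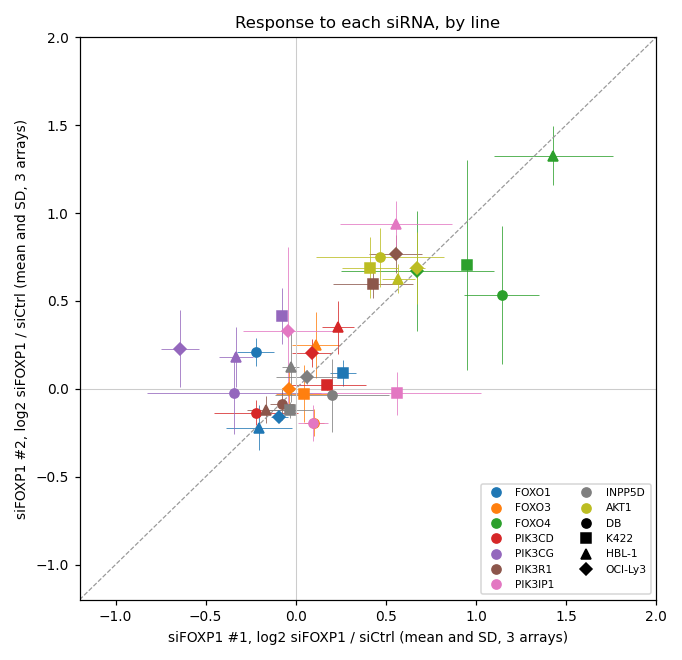
Mean log2(siFOXP1/siCtrl) with siFOXP1 #1 (x axis) and #2 (y axis), each over 3 arrays with SD, for the 9 genes (colours) in the 4 lines (symbols). The dashed line marks equal responses. PIK3CG lies above the line in all 4 lines, and FOXO1 in DB is the one point whose difference passed.

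Before silencing, the lines differed in most of these genes. Levels are the log2 Cy5 signal of siCtrl RNA as mean ± SD over 3 replicates, and they were tested only within a scan session, because level and session cannot be told apart between sessions. Values of lines from different sessions stand side by side without comparison. A call needed 2-fold. Between OCI-Ly3 and DB 2 genes were called higher and 4 lower, where 26.6% of all genes were called in either direction, and between HBL-1 and K422 also 2 higher and 4 lower, where 25.7% were. In bulk RNA, fewer cells with a transcript and less of it in each cell cannot be told apart.

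FOXO1 differed most between the lines of the first session. Its replicates were between 6.39 and 6.84 in DB (6.61 ± 0.23), between 12.75 and 12.88 in OCI-Ly3, between 12.35 and 12.86 in HBL-1 and between 13.96 and 14.32 in K422. OCI-Ly3 exceeded DB by 73.3-fold (adjusted p = 3.5e-10) and HBL-1 lay below K422 (log2 -1.64, adjusted p = 1.4e-05). The second probe gave the same order of DB against OCI-Ly3, with a difference of 4.70. The response of FOXO1 in DB described above was read from a level of this probe that was low against OCI-Ly3, although above background on all 6 arrays.

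The catalytic subunits differed between the ABC and the GCB line of each session, in opposite directions. PIK3CD was 9.07 ± 0.17 in DB and 9.46 ± 0.06 in K422, against 11.91 ± 0.06 in OCI-Ly3 and 11.15 ± 0.10 in HBL-1, a difference of 2.84 between OCI-Ly3 and DB (adjusted p = 4.8e-09) and of 1.69 between HBL-1 and K422 (adjusted p = 3.45e-07). All 3 PIK3CD probes gave this order within each session, with differences of 2.75 to 2.84 and of 1.68 to 1.85. PIK3CG was 8.996 ± 0.05 in DB and 8.86 ± 0.14 in K422, against 6.05 ± 0.12 in OCI-Ly3 and 6.65 ± 0.14 in HBL-1. It was lower in OCI-Ly3 than in DB (log2 -2.95, adjusted p = 5.4e-09) and lower in HBL-1 than in K422 (log2 -2.22, adjusted p = 6.0e-08). ABC lines thus had more p110δ and less p110γ transcript than GCB lines of the same session.

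PIK3IP1 was also lower in the ABC line of each session. It was 5.79 ± 0.51 in OCI-Ly3 against 8.32 ± 0.17 in DB (log2 -2.53, adjusted p = 4.1e-06). In the second session it was 7.57 ± 0.17 in HBL-1 against 8.87 ± 0.14 in K422 (log2 -1.30, adjusted p = 0.00065). Under normexp with loess the difference between HBL-1 and K422 was -0.90, which passed but was no call. FOXO3 was lower in OCI-Ly3 (6.58 ± 0.31) than in DB (9.16 ± 0.17) by 6.01-fold, and lower in HBL-1 than in K422 by 1.45-fold, which passed but was no call. FOXO4 was lower in OCI-Ly3 than in DB (log2 -1.51, adjusted p = 0.00068) and in HBL-1 than in K422 (log2 -0.96, adjusted p = 0.012), close to its background. For FOXO4 normexp with loess gave -0.52 between OCI-Ly3 and DB, no longer a call. Its second probe gave 0.13 and 1.02 for the same differences, so the direction for FOXO4 rests on 1 probe.

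AKT1, INPP5D and PIK3R1 were called between lines of 1 session at most. AKT1 was 8.59 ± 0.09 in K422 and 6.37 ± 0.09 in HBL-1, 4.65-fold lower (adjusted p = 1.6e-07), and it was 8.26 ± 0.01 in OCI-Ly3 and 7.89 ± 0.26 in DB, a difference of 0.37 that passed (adjusted p = 0.037). INPP5D was 15.19 ± 0.27 in HBL-1, 3.49-fold above K422 (13.39 ± 0.21, adjusted p = 1.9e-05), while OCI-Ly3 (14.46 ± 0.07) and DB (14.33 ± 0.34) overlapped. PIK3R1 was 9.47 ± 0.09 in HBL-1 and 8.50 ± 0.13 in K422, a difference of 0.97 (adjusted p = 1.9e-05), and 10.16 ± 0.02 in DB and 10.05 ± 0.11 in OCI-Ly3, which overlapped.

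**Figure D4:**
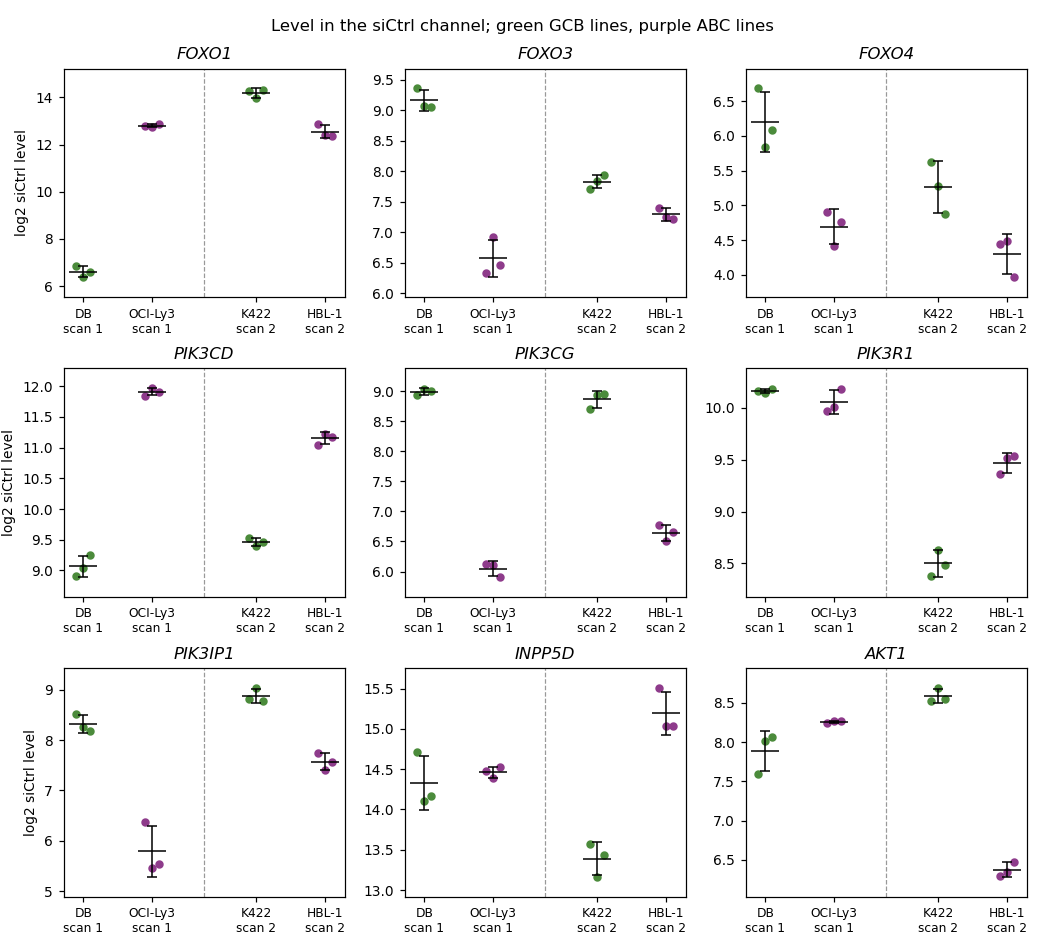
Log2 level of the 9 genes in siCtrl RNA, with a point per replicate (the mean of its arrays) and bars for mean and SD over 3 replicates. Green marks GCB and purple ABC lines, and the dashed line parts the scan sessions, across which levels cannot be compared; each panel has its own axis. PIK3CD is higher and PIK3CG and PIK3IP1 are lower in the ABC line of each session, and FOXO1 is low in DB.

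The rest of the pathway was read from 80 further genes in 6 lists, of which 29 were called in at least 1 line, where 16.2% of all genes were. Called higher and lower were 0 and 1 in DB, 7 and 4 in K422, 13 and 9 in HBL-1, and 7 and 3 in OCI-Ly3, beside the shares of all genes called higher and lower of 1.33% and 0.826% (DB), 2.34% and 2.1% (K422), 5.73% and 4.17% (HBL-1) and 2.8% and 1.62% (OCI-Ly3). The lists were chosen with earlier results known, and nothing particular to them is read from these counts. The medians over the 80 genes were 0.00, 0.04, 0.08 and 0.07 in that order, against 0 for all genes. As over all genes, DB had the fewest calls and HBL-1 the most.

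FOXO target genes, 34 in the list, held the largest changes. In HBL-1 8 were called higher and 4 lower, in K422 5 and 2, in OCI-Ly3 5 and 2, and in DB 0 and 1, beside 5.73% and 4.17%, 2.34% and 2.1%, 2.8% and 1.62%, and 1.33% and 0.826% of all genes. CXCR4, the chemokine receptor that places cells in the dark zone, rose by 2.43 ± 0.87 in HBL-1 (adjusted p = 1.3e-08) and by 1.16 ± 0.60 in K422 (adjusted p = 0.00010). S1PR1, the receptor for exit from lymphoid tissue, rose in OCI-Ly3 by 1.43 ± 0.45 (adjusted p = 9.0e-09). In DB, CDKN1B, the cell cycle inhibitor p27, fell by 0.56 ± 0.72 with 1 of 6 arrays higher (adjusted p = 0.039). PDK4, a kinase that restrains pyruvate oxidation, passed as lower in K422, HBL-1 and OCI-Ly3, but it was not well above background in HBL-1 and OCI-Ly3 on any array and on 1 of 6 in K422, so no size is given.

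Among 16 Akt and mTOR kinases and their regulators, 3 were called higher and 1 lower in HBL-1, 1 and 1 in K422, 1 and 0 in OCI-Ly3 and none in DB. SGK1, a kinase that phosphorylates FOXO proteins as Akt does, rose by 1.21 ± 0.26 in HBL-1 (adjusted p = 5.7e-06). Of 5 further class I PI3K subunits, PIK3R5, the regulatory subunit that partners p110γ, rose in OCI-Ly3 by 0.95 ± 0.21 (adjusted p = 0.0016), and 1 was called in HBL-1. Of 8 PI3K adaptors, GAB2 rose in K422 by 1.00 ± 0.24 (adjusted p = 0.0042), the 1 adaptor called higher in any line. IRS1, an adaptor of the insulin receptor, was the 1 called lower, with values of -0.58 (K422, adjusted p = 0.0040) and -0.74 (HBL-1, adjusted p = 0.00024). It was at least 1.48-fold lower in OCI-Ly3 (adjusted p = 0.00014), where siFOXP1 RNA was not well above background on any array and siCtrl RNA was on 4 of 6. Among 10 FOXO regulators 2 were called lower in HBL-1 and none in the other lines, and among 7 phosphoinositide phosphatases 1 was called higher and 1 lower, both in HBL-1. Beside these counts, 5.73% of all genes were called higher and 4.17% lower in HBL-1, and 2.34% and 2.1% in K422. The shares were 2.8% and 1.62% in OCI-Ly3 and 1.33% and 0.826% in DB, and nothing particular to these lists is read from the counts.

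**Figure D5:**
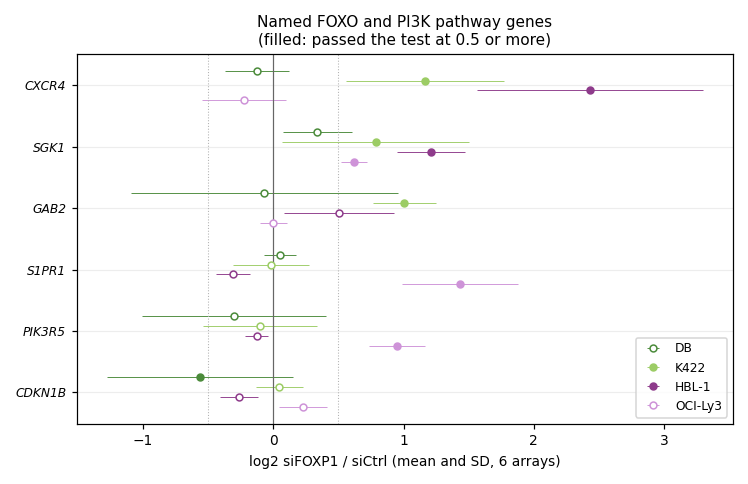
Mean log2(siFOXP1/siCtrl) with SD over 6 arrays of 6 pathway genes named in the text, by line (colours), with filled points for calls and dotted lines at a change of 0.5. CXCR4 in HBL-1 lies furthest to the right. S1PR1 in DB and K422 and PIK3R5 in DB were not well above background on any array, and CXCR4 in DB was on 1 of 6 per channel.

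The genes whose ratios ran most like those of FOXO1 over the 24 arrays, among 16834 genes above background in both channels, were PVT1 (r = 0.850), HSD17B6 (r = 0.826) and LPP (r = 0.795). For PIK3IP1 they were the unnamed probe A_24_P471099 (r = 0.852), ING4 (r = 0.830) and TSPAN10 (r = 0.827). Between the 9 genes themselves the correlations ran from -0.50 for INPP5D and AKT1 to 0.68 for PIK3CD and PIK3IP1. The arrays share lines and, possibly, control RNA, and these values are a description.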

How the data were processed

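The authors deposited the Feature Extraction output of each 2-colour whole-genome array, with background-corrected intensity values for both dyes. The same deposited tables give, for each spot, Cy5 against Cy3 as a dye-normalized log10 ratio. Headers name version 10.5.1.1 for scan 1 (DB, OCI-Ly3), as the methods do, and 10.7.3.1 for scan 2 (K422, HBL-1). A deposited table of log2 values correlated with log2(siFOXP1/siCtrl) on each array (r from 0.804 to 0.998); its column medians lie between -0.17 and 0.07, and its centring is not given in the sources used here.

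Of 45015 spots per array, 1639 controls and 113 to 469 outliers were removed. Ratios were turned to log2(siFOXP1/siCtrl), averaged per probe, and taken from the brightest probe of a gene over all arrays. At background, Feature Extraction substitutes a surrogate signal, so such ratios are uncertain. Probe coordinates are hg18, as in the files.

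One limma 3.58.1 model (R 4.3.3) held 8 means, 1 per line and siRNA, and both siRNAs were averaged for a line. Levels were Aquantile-normalized Cy5 signals, averaged over the arrays of a replicate and tested with limma. The model fits were tested on simulated data. A probe below background on every array of a group has only a bound, set by the lowest signal above background and open to dye bias. The number of arrays limits the precision. The genes, pathway lists and markers were chosen with earlier results of these data known. In the pathway lists, the called genes with the 4 largest changes per line are named, except for a result that is not reported here.

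Tried as alternatives were normexp (offset 50) followed by loess or by median centring, the deposited table, 2 filters on dim probes, keeping outliers, averaging probes, blocks for replicate or slide, another prior, another level scaling, lines and siRNAs taken singly, averaged siRNA arrays, the methods' t-test, line means, and omission of each replicate. Chosen after seeing the data were the omission of the DB array of widest spread, the fit of every probe, and the comparison of lines within a subtype. Protein sequences were not analysed here.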

Additional observations from a re-analysis of the deposited data

Results flagged for a closer look

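Among the 36 groups of 6 arrays (9 genes in 4 lines), 2 held an array far from the others, where chance alone gives about 1 group in 20. Both were siFOXP1 #1 replicate 1 in K422: PIK3CD was 0.43 there with the next array at 0.05, and PIK3IP1 was 1.101 with the next at 0.29.

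Responses that passed between subtypes in the model of all arrays were those of FOXO1 (-0.25) and PIK3CD (0.26), as ABC minus GCB lines. With 4 line means as the samples neither passed (limma adjusted p = 0.93 for each). The FOXO1 difference rests on its brighter probe, and the PIK3CD difference passed by its brightest probe only. Within the first scan session, OCI-Ly3 minus DB was 0.33 for PIK3CD and 0.74 for PIK3R1. Within the second, HBL-1 minus K422 was -0.39 for FOXO1, -0.65 for PIK3R1 and -0.40 for FOXP1 itself.

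Lines of the same subtype also differed. K422 minus DB was 0.59 for PIK3R1 and 0.66 for FOXP1. HBL-1 minus OCI-Ly3 was 0.71 for FOXO4, 0.60 for PIK3IP1 and -0.80 for PIK3R1. The part of the unequal FOXP1 knockdown in these differences was not tested. The FOXO4 and PIK3IP1 differences are those of the brightest probes. The second PIK3IP1 probe reversed the order, with OCI-Ly3 at 0.91 (siCtrl signal near background) above HBL-1 at 0.64. The dim second FOXO4 probe read 0.01 ± 0.44 (OCI-Ly3) against 0.20 ± 0.44 (HBL-1).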

How the results depend on the processing

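Of 36 tests of silencing 11 were calls, and the alternatives gave 9 to 11 except that normexp with loess gave 2 and normexp with median centring gave 2; both change background correction and normalization together. Of 9 tests between subtypes 2 passed, against 0 under normexp with median centring and 0 with 4 line means, a test with fewer samples. Of 36 tests between siRNAs 1 passed, against 0 under normexp with loess, 0 under normexp with median centring, 0 in the deposited matrix, 2 with the filter on both channels, 2 with the slide block and 2 without the DB array of widest spread. The cause of these shifts was not tested. PIK3R1 between subtypes (0.04) reversed to -0.65 within the second session. Leaving out 1 replicate at a time gave 10 to 11 calls on silencing, 2 to 3 between subtypes, 0 to 1 between siRNAs and 12 to 14 of 18 for control levels (12 with all replicates). For control levels normexp with loess gave 10 calls and averaged probes gave 11. PIK3R1 in K422 fell to 0.43 without K422 replicate 1 and AKT1 in K422 to 0.46 without K422 replicate 3, while PIK3IP1 passed between subtypes without K422 replicate 1 or OCI-Ly3 replicate 1 (0.42 and 0.43).

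The replicate numbers are shared between arrays of different siRNAs, but the pairing is not stated: the correlation of deviations in 12 pairs was 0.0469 to 0.284 with every gene used and 0.0776 to 0.534 with those above background, and not every pair was over 0.1. With a replicate block, 11 silencing calls and 2 subtype differences were found and 2 siRNA differences passed, FOXO1 in DB and PIK3CG in OCI-Ly3.

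Under median centring FOXO1 in K422 turned from 0.17 to -0.11, PIK3CD in K422 from 0.10 to -0.01 and INPP5D in HBL-1 from 0.05 to -0.44. The median of all genes moved by over 0.1 only in the deposited matrix, in HBL-1 (-0.11). Dim signal limits FOXO4, the second PIK3IP1 probe in OCI-Ly3 and PDK4.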
